A study of Mus musculus with 30 samples.

Results

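Fam210b and Fam210a, a pair of related genes for mitochondrial membrane proteins, were followed across 5 lines of βTC3 cells with and without activin B. βTC3 is an insulin-producing cell line from a mouse pancreatic islet tumour, and activin B belongs to the TGF-β ligands and can use ALK7, a type I receptor. The 2 genes were taken by symbol from a table of 39017 genes, and both were among the 15627 that passed the filter on low counts. Fam210b was picked because of its large and even increase with activin B. Its response to activin B and the differences in that response between lines are therefore given without a test, as a description. Poly(A) RNA had been sequenced from 30 libraries in 10 groups of 3. The lines carried DOX-inducible ALK7, a dominant-negative form of it (ALK7-DN), one hairpin against ALK7 (sh2), a pair of hairpins (sh1/2) or a control construct. In each line, 3 libraries came from cells given 50 ng/ml activin B for 24 hours and 3 from cells without it, and all cells, those without activin B included, were given 1 µg/ml doxycycline (DOX) for 24 hours.

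The lines limit what the comparisons can show. Both hairpin lines used a plasmid backbone that differed from that of the ALK7, ALK7-DN and control lines, and none of the samples used here was a hairpin-free line on that backbone. The labels describe the triplicates as wells, so the p-values cover no more than the spread among these wells, part of which may be technical. Batch 2 in the labels held the 3 libraries of ALK7-DN with activin B together with the 3 of sh2 with DOX alone, and batch 1 all others, so batch and treatment cannot be told apart within either of these lines. Acvr1c, the gene of ALK7, averaged 68.5 ± 12.8 CPM in sh2, 55.3 ± 8.0 CPM in sh1/2 and 165 ± 6.34 CPM in control cells with DOX alone (SD, n = 3 each; CPM, counts scaled to a library total of 1000000). It was lower in both hairpin lines (log2 fold change -1.27 ± 0.11 SE in sh2 and -1.58 ± 0.11 in sh1/2, adjusted p = 1.05e-08 and 4.16e-11, edgeR quasi-likelihood test), but neither the ALK7 line (-0.10, adjusted p = 0.754) nor the ALK7-DN line (-0.03, adjusted p = 0.984) differed past the test. The constructs of these 2 lines were thus not visible in the Acvr1c counts. Acvr1c was itself lower with activin B in all 5 lines (log2 fold change -1.05 to -0.59), at 101 ± 8.05 CPM in control cells (adjusted p = 1.14e-05, edgeR quasi-likelihood test). Set against control cells with activin B, it stood at -1.24 in sh2, -1.91 in sh1/2, -0.32 in ALK7 and 0.09 in ALK7-DN cells. Smad7, an inhibitory SMAD, and Skil, a SMAD corepressor, both rose with activin B in all 5 lines, Smad7 by 1.71 to 2.92 and Skil by 1.13 to 1.84 on the log2 scale. Summed markers of beta cells came to 15053 to 21170 CPM with activin B and 13486 to 25156 CPM with DOX alone, and 9 erythroid markers together came to 0.390 to 0.962 CPM and 0.316 to 0.770 CPM, with the globin genes Hba-a2, Hbb-bs and Hbb-bt at 0 counts. Marker sums of acinar cells stayed at or under 0.585 CPM with activin B and 0.811 CPM with DOX alone, and those of immune and stromal cells at or under 6.12 and 5.60 CPM. Among the beta cell markers Pdx1 fell (-0.48 to -0.22) and Chga rose (0.37 to 0.89, log2 fold change) in all 5 lines. The insulin genes Ins1 (-0.70 to -0.65) and Ins2 (-0.94 to -0.68) fell in 4 lines, with -0.24 and -0.14 in sh1/2 (adjusted p = 0.0853 and 0.525). The summed markers of other islet cells were lower with activin B, at 8.68 to 36.6 CPM against 50.6 to 175 CPM with DOX alone. This sum is mostly Gcg, with 38204 counts over all libraries, against 1160 for Sst and 538 for Ppy. Of the 3 tested genes of that list, 1 was called higher in each line, while 2 were lower in control cells and 1 in each other line. Of all genes, 8.48% to 17.5% were called higher and 7.62% to 19.1% lower. The part of these marker changes in the results was not tested.

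FAM210B sits in the mitochondrial inner membrane. In mouse and zebrafish erythroid cells it is known to aid the import of iron into mitochondria and the synthesis of heme, in association with the iron importer mitoferrin-1 (Slc25a37) and with ferrochelatase (Fech), which inserts iron into protoporphyrin. The inner membrane transporter ABCB10 is known to stabilise mitoferrin-1 in such cells. FAM210A is an inner membrane protein of the same family that binds ATAD3A and the mitochondrial elongation factor EF-Tu (Tufm), and it is known for its part in mitochondrial translation and in muscle and bone in mice. Activin receptors act on genes through SMAD2 and SMAD3, and SMAD3 binds short DNA motifs such as GTCT.

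Fam210b (ENSMUSG00000027495) is a protein-coding gene on the plus strand of mouse chromosome 2, from 172345565 to 172355749 in mm10. The 250 bases before its RefSeq start (GRCm38.p6, chr2:172345327-172345576, plus strand) are shown because Fam210b is the member whose RNA moved with activin B. Capitals mark every match, on either strand, to the SMAD box GTCT and to the GC box GGGCGG, which is bound by SP1 and KLF factors. GGGCGG read on the other strand is CCGCCC.

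Fam210b upstream sequence: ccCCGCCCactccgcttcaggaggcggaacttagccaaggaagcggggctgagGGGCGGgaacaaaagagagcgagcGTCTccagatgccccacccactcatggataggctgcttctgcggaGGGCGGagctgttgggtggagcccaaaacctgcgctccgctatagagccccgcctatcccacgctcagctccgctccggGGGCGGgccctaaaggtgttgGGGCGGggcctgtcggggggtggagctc

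This stretch was rich in G and C (67.6%, against a median of 52.4% over 32536 RefSeq promoters of the same length). It held 18 CG dinucleotides, against a median of 6, and 78.2% of the promoters held fewer. GGGCGG matched 5 times, and 33.0% of the promoters held at least 1 match. The share with 5 or more matches was not counted, nor was the share among promoters of like GC content. GTCT matched 1 time, and 82.9% of the promoters held at least 1 match. There was no match to the longer SMAD form CAGAC (42.2% of promoters), the palindrome GTCTAGAC (0.169%), the GC-rich SMAD motif GGCGC (32.2%), the FOXH1 motif TGTNNATT (10.9%), the GATA motif GATAA (22.5%) or the E-box CACGTG (6.04%). CAGAC and GTCTAGAC overlap GTCT matches by construction.

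Fam210b was 9.54- to 11.8-fold more abundant with activin B in the 5 lines. The gene had 599.5, 611.6 and 654.9 CPM in ALK7 cells with activin B, against 54.3, 55.1 and 54.5 CPM with DOX alone. ALK7-DN cells had 430.6, 426.2 and 454.2 CPM with activin B, against 45.9, 45.2 and 45.0 CPM with DOX alone. In both lines all activin B libraries stood far above all DOX libraries, and the libraries of a group lay close together. For sh2 cells the values were 464.8, 479.3 and 467.5 CPM with activin B, against 43.8, 39.9 and 42.9 CPM with DOX alone. For sh1/2 cells they were 321.2, 302.4 and 305.2 CPM with activin B, against 33.0, 30.6 and 33.8 CPM with DOX alone. Control cells had 574.7, 550.3 and 531.8 CPM with activin B, against 46.9, 46.7 and 46.4 CPM with DOX alone. Thus the lowest activin B library of any line (302.4 CPM, sh1/2) was above the highest DOX library of any line (55.1 CPM, ALK7). In bulk RNA such as this, a change in the number of cells that express a gene and a change in RNA per cell cannot be told apart.

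**Figure D1:**
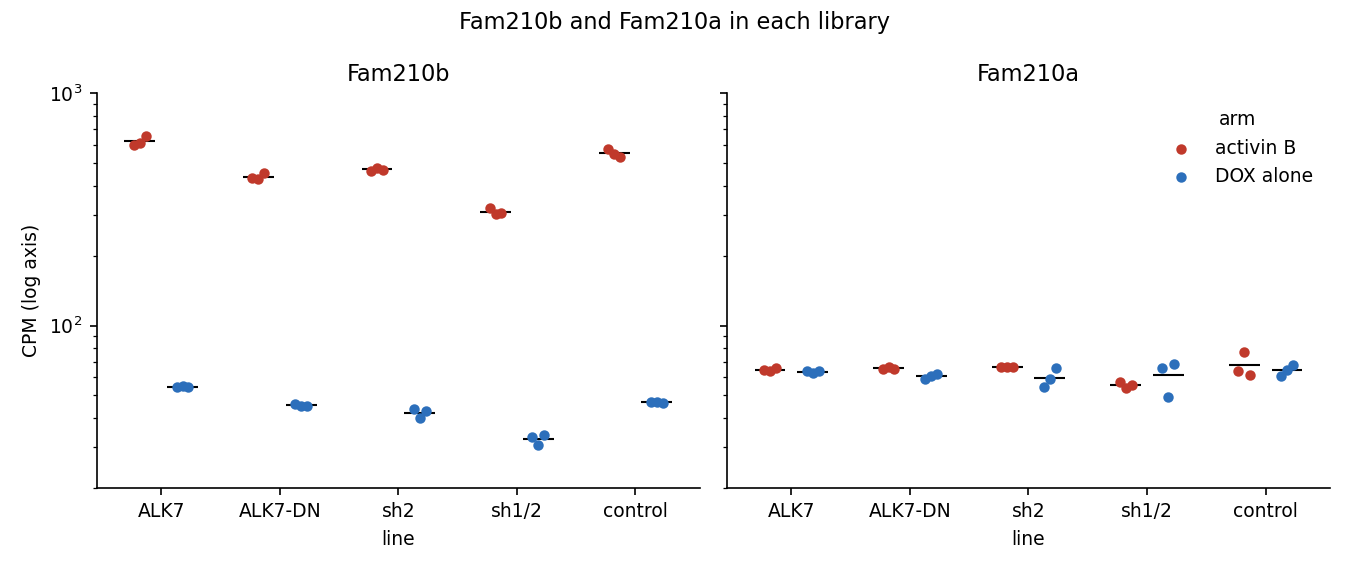
CPM of Fam210b (left) and Fam210a (right) in each of the 30 libraries, on a log axis, with activin B in red left of DOX alone in blue for each line; bars are means of 3 libraries. Fam210b lies at 302.4 CPM or more with activin B and at 55.1 CPM or less with DOX alone, while both arms of Fam210a lie between 49.2 and 77.1 CPM.

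The fitted increases of Fam210b were 3.51 ± 0.05 in ALK7, 3.27 ± 0.05 in ALK7-DN, 3.48 ± 0.05 in sh2, 3.25 ± 0.05 in sh1/2 and 3.56 ± 0.05 in control cells (log2 fold change ± SE), or 11.4-, 9.63-, 11.2-, 9.54- and 11.8-fold. Ranked by log2 fold change among the 12272 genes that averaged 2 CPM or more, Fam210b stood at place 17, 16, 16, 9 and 18 in the same order of lines. These ranks and folds restate the contrast by which the gene was picked. The spread within groups, also part of the choice, was small, with a coefficient of variation from 0.577% in control cells with DOX alone to 5.14% in sh1/2 cells with DOX alone. Among genes that averaged 2 CPM or more in a group, 1.10% had a lower coefficient in control cells with DOX alone. In ALK7 cells with activin B 38.5% did, and the other groups lay between these shares. Set against the control line, the response differed by -0.06 ± 0.06 in ALK7, -0.30 ± 0.06 in ALK7-DN, -0.09 ± 0.06 in sh2 and -0.31 ± 0.06 in sh1/2 (log2 difference ± SE, not tested). Without sh1/2 DOX replicates 1 and 3 and control activin B replicate 2, which an earlier analysis of these data singled out for fewer reads on GC-rich genes, the sh1/2 increase was 3.34 and its difference from control -0.22. With line, treatment and batch as additive terms, the activin B coefficient of Fam210b was 3.42 ± 0.03 and the batch coefficient -0.11 ± 0.05, and without the batch term the activin B coefficient was again 3.42.

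The levels of Fam210b within 1 arm differ from the contrast by which it was picked, but its small spread between replicates was part of the choice. The SEs and p-values of its levels are therefore too small: the spread used for it (standard deviation) was 0.663 of that of genes of like abundance. With activin B the order from high to low was ALK7 (622 ± 29.1 CPM), control (552 ± 21.5), sh2 (471 ± 7.73), ALK7-DN (437 ± 15.1) and sh1/2 (310 ± 10.2, SD, n = 3 each), and no group overlapped its neighbour. With DOX alone the order was ALK7 (54.6 ± 0.420 CPM), control (46.7 ± 0.269), ALK7-DN (45.4 ± 0.484), sh2 (42.2 ± 2.06) and sh1/2 (32.5 ± 1.67), again without overlap between neighbours. Picking the gene for its small spread favours such separation, and the share of all genes that show it was not counted. The ALK7 line was the highest and the sh1/2 line the lowest in both arms, whereas ALK7-DN and sh2 changed places, the batch 2 group of that pair being the lower of them in each arm.

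Set against the control line, sh1/2 cells had the lowest Fam210b in both arms. The log2 fold change was -0.84 ± 0.04 with activin B (adjusted p = 5.61e-13) and -0.53 ± 0.05 with DOX alone (adjusted p = 4.90e-09, edgeR quasi-likelihood test), in comparisons where 35.2% and 38% of all genes were called. With the spread of genes of like abundance in place of its own, an alternative added after the data were seen, both sh1/2 calls held (adjusted p = 5.98e-10 and 2.09e-06; 42.5% and 45.8% of all genes called). With activin B, sh2 cells (-0.23 ± 0.04, adjusted p = 0.000927; 9.23% called) and ALK7-DN cells (-0.34 ± 0.04, adjusted p = 5.88e-05; 1.65% called) were lower in edgeR's quasi-likelihood test, and both calls held with that wider spread (adjusted p = 0.0239 and 0.00226). They ended when only the groups compared were fitted (adjusted p = 0.0685 and 0.175), and the ALK7-DN libraries were batch 2 against batch 1. For ALK7 cells the values were 0.17 ± 0.04 with activin B (adjusted p = 0.0235; 4.53% called) and 0.23 ± 0.05 with DOX alone (adjusted p = 0.00776; 1.98% called, edgeR quasi-likelihood test), and neither passed with the wider spread (adjusted p = 0.0920 and 0.0509). The activin B call of ALK7 was also lost in a fit of these groups alone (adjusted p = 0.365), without the low-count filter (0.0748), and without control activin B replicate 2 (0.17, 0.0774) or 3 (0.15, 0.122) or ALK7 activin B replicate 2 (0.18, 0.0526) or 3 (0.13, 0.130). With DOX alone, ALK7-DN cells did not differ past the test (-0.04 ± 0.05, adjusted p = 0.924; 0.966% called, 95% interval -0.14 to 0.06). The sh2 difference with DOX alone, -0.15 ± 0.05, passed narrowly on the gene's own spread (adjusted p = 0.0467; 9.99% called, edgeR quasi-likelihood test) but not with the wider one (adjusted p = 0.192). It was between batches and did not pass without any 1 of the control DOX replicates 1, 2 or 3 (-0.14, -0.15 and -0.15; adjusted p = 0.135, 0.103 and 0.104) or of the sh2 DOX replicates 2 or 3 (-0.11 and -0.16; 0.257 and 0.0634).

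**Figure D2:**
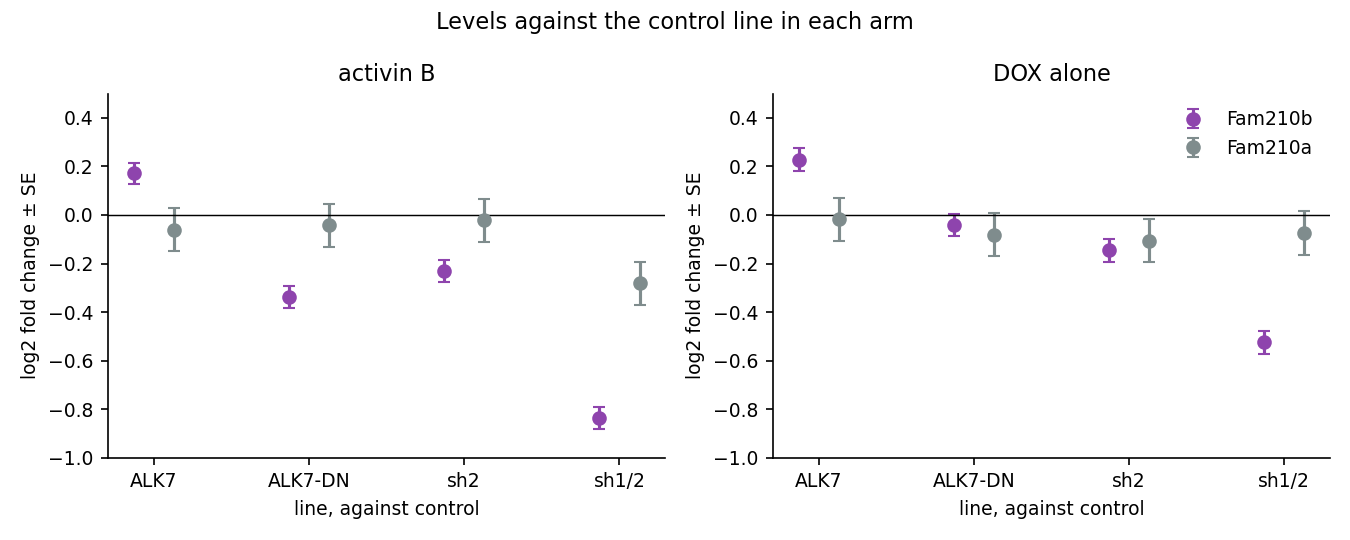
Log2 fold change ± SE of Fam210b (purple) and Fam210a (grey) in each line against the control line, with activin B (left) and with DOX alone (right). For Fam210b the sh1/2 line lies at -0.84 and -0.53 and the ALK7 line at 0.17 and 0.23; the Fam210a points lie near 0 except sh1/2 with activin B, at -0.28.

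Fam210a (ENSMUSG00000038121) lies on the minus strand of chromosome 18, from 68260187 to 68300333 in mm10, and is protein-coding. Unlike Fam210b, it was not picked by its values, and its response was tested. It had 63.7, 77.1 and 61.5 CPM in control cells with activin B, against 60.4, 64.5 and 67.5 CPM with DOX alone. The control groups overlapped, and replicate 2 with activin B was the highest of all 30 libraries. The means were 64.6 ± 0.942 CPM with activin B and 63.3 ± 0.544 CPM with DOX alone in ALK7 cells, 65.5 ± 0.822 and 60.7 ± 1.44 CPM in ALK7-DN cells, and 66.4 ± 0.0676 and 59.6 ± 5.82 CPM in sh2 cells (SD, n = 3 each). In sh1/2 cells the values were 57.4, 53.7 and 55.3 CPM with activin B, against 65.4, 49.2 and 68.4 CPM with DOX alone. There the single DOX library at 49.2 CPM was below every activin B library and the other 2 were above them.

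No line passed the test for a Fam210a response. The log2 fold changes were 0.03 in ALK7 (adjusted p = 0.860, 95% interval -0.16 to 0.21), 0.11 in ALK7-DN (0.500, -0.07 to 0.29), 0.16 in sh2 (0.250, -0.03 to 0.34), -0.13 in sh1/2 (0.237, -0.32 to 0.05) and 0.07 in control cells (0.646, -0.11 to 0.26), each with an SE of 0.09 in edgeR's quasi-likelihood test. In the same contrasts 25.3%, 16.1%, 19.6%, 36.6% and 20.3% of all genes were called. The additive fit over all lines with a batch term gave 0.05 ± 0.04 (adjusted p = 0.419; 40.6% of genes called). Nor did the Fam210a response differ from that of the control line past the test (adjusted p = 0.896 for ALK7, 1.00 for ALK7-DN, 1.00 for sh2 and 0.225 for sh1/2, edgeR quasi-likelihood test; 0.0256%, 0%, 0.0128% and 17.7% of genes called). Without sh1/2 DOX replicate 2, the sh1/2 response was -0.27 (adjusted p = 0.00390) and its difference from control -0.34 (adjusted p = 0.00798, edgeR quasi-likelihood test). Without the 3 libraries low on GC-rich genes, which leaves 1 sh1/2 DOX library, the sh1/2 response was 0.18. That removal, which took out no sh2 library, also brought the sh2 response past the test (0.17 ± 0.05, adjusted p = 0.0203, edgeR quasi-likelihood test). Its value stayed near the 0.16 ± 0.09 of the main fit, and 25.9% of all genes were then called in sh2.

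Between lines, Fam210a was called in 1 of 8 comparisons with the control, in which 0.966% to 38% of all genes were called. In sh1/2 cells with activin B, where 35.2% of all genes were called, it was lower than in control cells. The means were 55.5 ± 1.85 CPM against 67.4 ± 8.44 CPM (-0.28 ± 0.09, adjusted p = 0.0159, edgeR quasi-likelihood test). This call ended without control activin B replicate 2 (-0.18, adjusted p = 0.155), without sh1/2 activin B replicate 2 (-0.26, adjusted p = 0.0598) and in a fit of these groups alone (adjusted p = 0.0704). With DOX alone sh1/2 cells did not differ past the test (-0.07, adjusted p = 0.538, edgeR quasi-likelihood test). Without the 3 libraries low on GC-rich genes the value was -0.39, but that fit keeps only 1 sh1/2 DOX library. The library kept is replicate 2, at 49.2 CPM the lowest Fam210a value of all 30 libraries. Without sh1/2 DOX replicate 2 the value was 0.06. The groups of Fam210a, ordered by mean from 67.4 CPM to 55.5 CPM, each overlapped the next.

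Fam210a was set beside the GC content of the reads in each library. Its exons hold 43.5% G and C, against 50.2% for Fam210b and a median of 49.6% over the genes tested. In each library the deviation of every gene from its group mean was correlated with gene GC content, and a negative value means fewer reads on GC-rich genes. In 7 of 10 groups the library with the lowest such correlation had the highest Fam210a value, and in 7 of 10 the library with the highest correlation had the lowest value. The same counts for Fam210b were 5 and 4. They were not made for all genes, so the usual count is not known. In sh2 with activin B, a group in both Fam210a counts, the libraries spanned only 66.3 to 66.4 CPM. In ALK7-DN with activin B the library with the lowest correlation had the lowest Fam210a value, 64.8 CPM. Control activin B replicate 2, at 77.1 CPM, had a correlation of -0.80, and the sh1/2 DOX libraries at 65.4, 49.2 and 68.4 CPM had -0.63, 0.79 and -0.73. ALK7-DN activin B replicate 3 (-0.65) and ALK7 activin B replicate 3 (-0.62) were about as low as the sh1/2 library at 65.4 CPM and were kept in the fit without 3 libraries. The part of GC content in the Fam210a values was not tested beyond the fits without these libraries and with a GC correction.

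**Figure D3:**
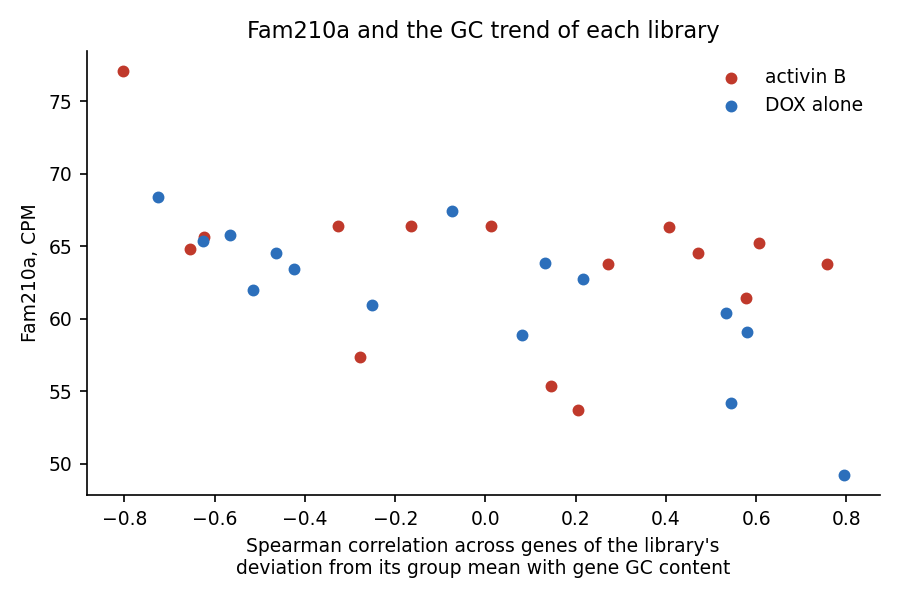
Fam210a CPM in each of the 30 libraries (activin B red, DOX alone blue) against the Spearman correlation, across genes, of that library's deviation from its group mean with gene GC content. The highest library (77.1 CPM, control activin B replicate 2) lies at -0.80 and the lowest (49.2 CPM, sh1/2 DOX replicate 2) at 0.79.

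Per kilobase of exon, Fam210b exceeded Fam210a in both arms. The lengths were 3617 bases for Fam210b and 9813 for Fam210a, over the exons of all annotated transcripts. In CPM, Fam210b was the lower of the 2 in each line with DOX alone (46.7 against 64.1 in control cells). The order in that arm thus rests on these lengths, and which transcripts were present was not tested. In control cells Fam210b stood at 153 ± 5.95 CPM per kilobase with activin B, against 12.9 ± 0.0745 with DOX alone. Fam210a stood at 6.87 ± 0.860 with activin B, against 6.54 ± 0.361 with DOX alone. Over the 15 libraries of an arm, the ratio of Fam210b to Fam210a per kilobase had a lowest value of 15.0, a median of 19.1 and a highest of 27.1 with activin B, against 1.34, 1.97 and 2.38 with DOX alone. The ratios of the arms did not overlap, as the choice of Fam210b fixes.

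The genes beside Fam210b did not show increases of its size. Aurka, the mitotic kinase Aurora A, ends 440 bases beyond Fam210b on the opposite strand. It had 225 ± 9.39 CPM with activin B and 203 ± 12.4 CPM with DOX alone in control cells (0.15 ± 0.05, adjusted p = 0.0525, edgeR quasi-likelihood test), and its log2 fold changes in the 5 lines were 0.11 to 0.15, none past the test. Aurka in control cells passed in 7 of 14 alternatives. Cstf1, a subunit of the cleavage stimulation factor for messenger RNA ends, was called in sh1/2 cells (0.31 ± 0.09, adjusted p = 0.0117), a call that ended in 4 of 14 alternatives. The other annotated neighbours were nearly silent, with 0 counts of Gm14275, 1 of Gm14273, 1 of Mc3r and 19 of Cass4 over all 30 libraries.

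Ldlrad4, an inhibitor of TGF-β signalling, overlaps the last 8444 bases of Fam210a on the opposite strand, and it rose in all 5 lines. It averaged 14.4 ± 1.16 CPM with activin B and 4.05 ± 0.524 CPM with DOX alone in control cells (1.84 ± 0.12, adjusted p = 1.22e-11), and the log2 fold changes in the other lines were 1.86 to 2.49. The library kit kept strand, per the labels, but the strand setting of the counting is not given in the sources used here, so how reads of the overlap were shared between Fam210a and Ldlrad4 cannot be told. Rnmt, the messenger RNA cap methyltransferase, starts 21 bases from Fam210a on the plus strand and was not called in any line (-0.11 to 0.16). Cep192, a centriole protein, was not called either (-0.18 to 0.13), and Mc5r had 146 counts and mmu-mir-7219, inside Fam210a, 0 counts over all libraries. Seh1l, a nucleoporin, was lower in sh1/2 cells (-0.23 ± 0.08, adjusted p = 0.0277), with the sign turned without the 3 libraries low on GC-rich genes (0.06).

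**Figure D4:**
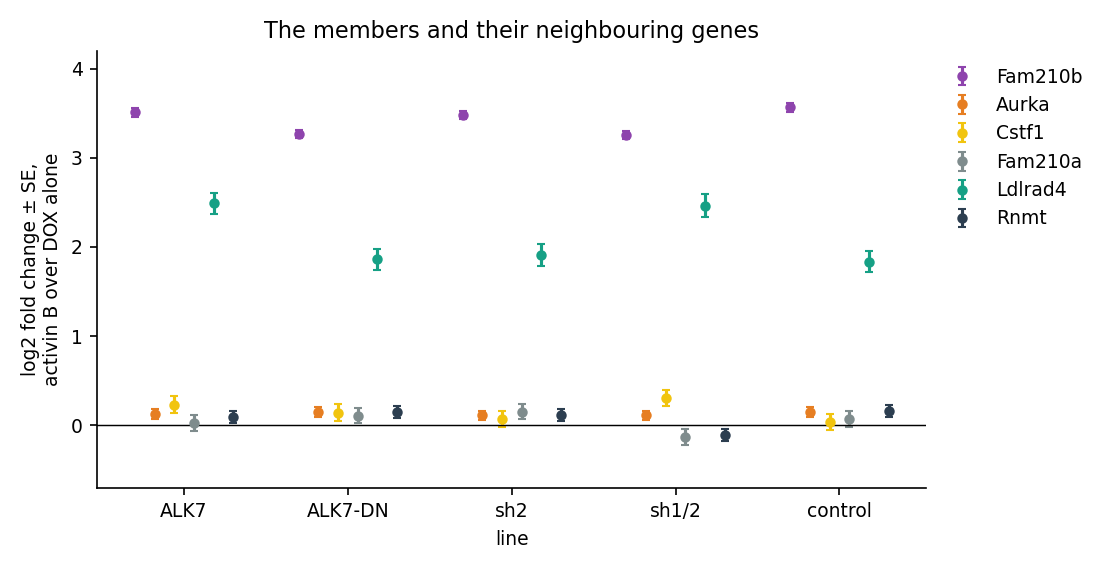
Log2 fold change ± SE, activin B over DOX alone, of Fam210b, Fam210a and 4 of their neighbouring genes in each line. Fam210b lies at 3.25 to 3.56 and Ldlrad4 at 1.84 to 2.49, while Aurka lies at 0.11 to 0.15 and Fam210a at -0.13 to 0.16.

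None of the 3 genes tied to FAM210B in erythroid heme synthesis was called higher with activin B in any line. Abcb10, the transporter that stabilises mitoferrin-1 in erythroid cells, fell in all 5 lines. It stood at 87.1 ± 2.19 CPM with activin B and 133 ± 1.25 CPM with DOX alone in ALK7 cells, and at 102 ± 2.99 CPM and 139 ± 7.81 CPM in control cells (SD, n = 3 each). Its log2 fold changes were -0.61 in ALK7, -0.41 in ALK7-DN, -0.50 in sh2, -0.46 in sh1/2 and -0.44 in control cells, each ± 0.05 (adjusted p = 1.47e-10, 2.10e-07, 7.64e-09, 3.67e-08 and 6.89e-08, edgeR quasi-likelihood test), and no alternative setting ended any of these calls. Slc25a37, the iron importer mitoferrin-1, fell in ALK7 (-0.33 ± 0.05, adjusted p = 4.93e-05), ALK7-DN (-0.17, adjusted p = 0.0355) and control cells (-0.18, adjusted p = 0.0207), and had -0.13 in sh2 and -0.11 in sh1/2 cells (adjusted p = 0.0923 and 0.114). The ALK7-DN and control calls of Slc25a37 each ended in 6 of 14 alternatives. Fech was lower in ALK7 (-0.16, adjusted p = 0.00921) and sh1/2 cells (-0.23, adjusted p = 0.000559), each call ending in 2 of 14 alternatives, and stood at 0.01 ± 0.05 in control cells.

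Over the whole list of 28 genes of heme synthesis and mitochondrial iron, 27 were tested; Alas2, the erythroid first enzyme of the pathway, had 7 counts over all libraries. The list had 1 higher and 7 lower in ALK7, 2 and 3 in ALK7-DN, 1 and 4 in sh2, 2 and 6 in sh1/2, and 2 and 4 in control cells. In the same order, 13%, 8.48%, 10.7%, 17.5% and 10.7% of all genes were called higher and 12.3%, 7.62%, 8.91%, 19.1% and 9.66% lower. The list's median log2 fold change lay between -0.11 and 0.06 in the 5 lines. Abcb10 was the only tested gene of the list to be called in 1 direction in every line, and 3.54% of all genes were called lower in all 5. Hmox2, a heme-degrading oxygenase, rose in control cells (0.21 ± 0.06, adjusted p = 0.00707) and had 0.05 to 0.12 in the other lines. Tmem14c, which carries heme precursors in erythroid cells, fell in sh2 (-0.24, adjusted p = 0.0481) and control cells (-0.27, adjusted p = 0.0261), calls that ended in 7 and 5 of 14 alternatives.

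**Figure D5:**
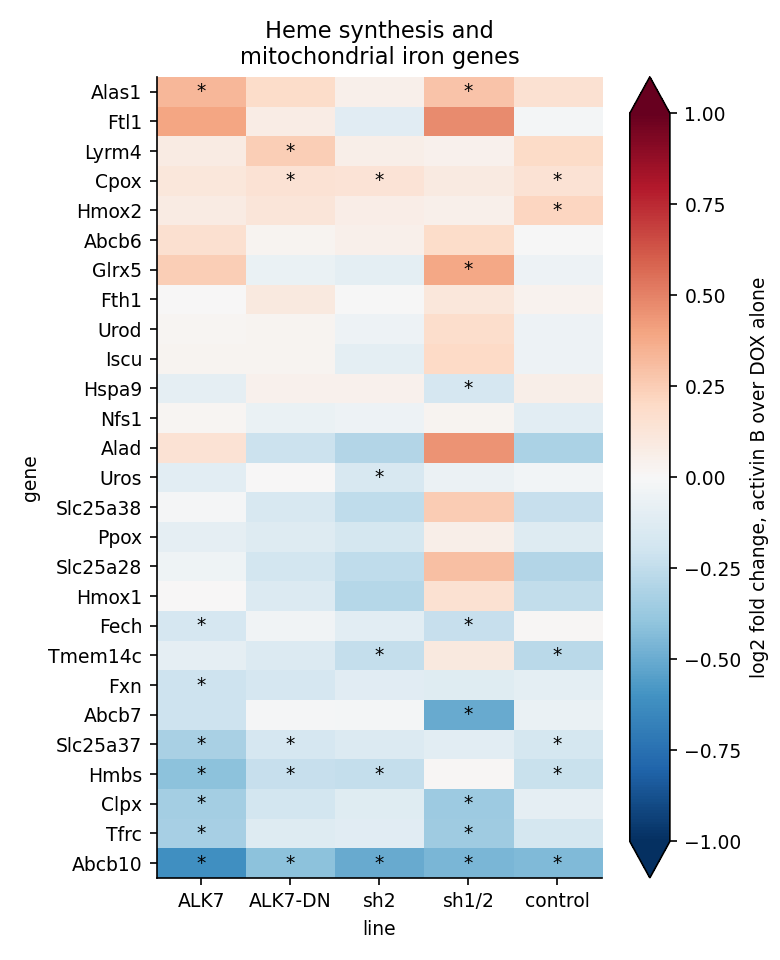
Log2 fold change, activin B over DOX alone, of the 27 tested genes of heme synthesis and mitochondrial iron (rows) in the 5 lines (columns); red is higher and blue lower with activin B, and a star marks an adjusted p under 0.05. Abcb10, in the bottom row, is starred in all 5 lines, at -0.61 to -0.41.

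Of the partners of FAM210A, Tufm was not called in any line (-0.37 to 0.16, SE 0.17). Atad3a was called in sh1/2 cells alone among the 5 lines (0.22 ± 0.08, adjusted p = 0.0384), with values of -0.17 to -0.08 in the others, and the sh1/2 call ended or turned in 8 of 14 alternatives. Of 17 tested mitochondrial translation factors, 1 was higher in each line, and 1 was lower in ALK7, ALK7-DN and control cells and 2 in sh2 and sh1/2 cells, beside 8.48% to 17.5% of all genes higher and 7.62% to 19.1% lower. Lrpprc, which stabilises mitochondrial messenger RNAs, was higher in 4 of 5 lines, at 305 ± 11.2 CPM with activin B and 248 ± 5.52 CPM with DOX alone in control cells (0.30 ± 0.05, adjusted p = 3.30e-05, edgeR quasi-likelihood test). Its increases were 0.21 in ALK7, 0.32 in ALK7-DN and 0.29 in sh2 cells and held in all 14 alternatives of each, and the sh1/2 value was 0.07 (adjusted p = 0.242). Gfm2, a factor that recycles mitochondrial ribosomes, was lower in ALK7-DN, sh2 and control cells (-0.16 in each), calls that ended in 6 or 7 of 14 alternatives.

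Over all 6 mitochondrial lists, which held 123 tested genes, 22 (17.9%) were called in ALK7, 9 (7.32%) in ALK7-DN, 14 (11.4%) in sh2, 38 (30.9%) in sh1/2 and 13 (10.6%) in control cells, against the 25.3%, 16.1%, 19.6%, 36.6% and 20.3% of all genes given above. With the replicate number as a block the counts were 38, 15, 27, 69 and 22, beside 32.1%, 21%, 26.7%, 47.6% and 27.6% of all genes. With the block the sh1/2 count was 56.1% of the lists' genes, above the 47.6% of all genes, while the counts of the other 4 lines were below theirs. Of 32 nuclear respiratory chain subunits, 4 were lower in ALK7, 1 in sh2, 3 in control and 4 in sh1/2 cells, and 3 were higher in sh1/2 cells and 0 in the other lines. Those lower in control cells were Atp5b (-0.11, adjusted p = 0.0383), Cox6c (-0.34, adjusted p = 0.0484) and Atp5a1 (-0.15, adjusted p = 0.0492), each ending in 7 to 9 of 14 alternatives. Atp5b also fell in ALK7 cells (-0.18, adjusted p = 0.000951), a call that held in all 14 alternatives. Of 16 genes of mitochondrial biogenesis, 4 were higher and 3 lower in sh1/2 cells, 1 was lower in ALK7 cells, and 0 were called in the other 3 lines. Of 18 inner membrane protease and cristae genes, 4 were higher and 4 lower in sh1/2 cells, and 4 were lower in ALK7 and 1 in each other line. Pcx, the pyruvate carboxylase of beta cells, was lower in ALK7-DN (-0.42, adjusted p = 0.0483), sh2 (-0.45, adjusted p = 0.0271) and control cells (-0.54, adjusted p = 0.00775), calls that ended in 7, 4 and 2 of 14 alternatives, and Spg7, a subunit of an inner membrane protease, in control cells (-0.31, adjusted p = 0.0324), a call that ended in 7 of 14. Without the 3 libraries low on GC-rich genes the sh1/2 count over the 6 lists was 2, with 9.1% of all genes called.

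Genes with a pattern like that of Fam210b were ranked by Pearson correlation over the 10 group means of log2 (CPM + 2), among 12271 other genes. The points share lines, libraries and the activin B contrast, so this is a description. The nearest were Prr5l (r = 0.996), which binds the kinase complex mTORC2, Etl4 (0.996), the peptidylarginine deiminase Padi2 (0.996), the interleukin-4 receptor Il4ra (0.995), the vesicle regulator Madd (0.995), Tmc7 (0.994), Tm4sf4 (0.994) and the ryanodine receptor partner Fkbp1b (0.993). They differed in level and in size of response: Prr5l had 12.7 ± 0.805 CPM with activin B and 0.159 ± 0.104 CPM with DOX alone in control cells, and Madd 443 ± 51.2 CPM and 175 ± 8.88 CPM. The opposite pattern was nearest in Vat1l (-0.994), the exocyst subunit Exoc6b (-0.993), Fam183b (-0.987) and the phosphodiesterase Pde10a (-0.985). In all, 389 genes had r over 0.9 with Fam210b. For Fam210a the number was 84, led by acetyl-CoA carboxylase, Acaca (0.976), Gas2l3 (0.964), Fnip1 (0.963) and Mob1b (0.963), over group means that differed little.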

How the data were processed

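RNA had been sequenced as poly(A) libraries made with a stranded kit, per the labels. The authors deposited integer read counts per gene, which were used as they stand. Per the submitters' processing notes, the tools were bcl2fastq 2.17, cutadapt 1.4.2, HISAT2, featureCounts 1.4.4 and edgeR, with build mm10; the strand setting and the handling of reads with several matches are not given in the sources used here, which could move counts between overlapping or near-identical genes. The authors' table of log2 values was not used. All count columns were assigned to a sample.

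Library totals were 18904884 to 34740789. Replicates differed by more than counting error (lowest chi-square per degree of freedom 8.23). The counts were tested with edgeR 4.0.16 in R 4.3.3 (filterByExpr, TMM, 10 group means over 30 libraries, quasi-likelihood F test, Benjamini-Hochberg threshold 0.05 over 15627 genes), and every adjusted p comes from it unless another tool is named. The 17 contrasts were activin B against DOX alone in each line, the differences of those responses from control, and each line against control in each arm. Intervals are 95% from the SE with 20 degrees of freedom. Log2 values for likeness had a pseudocount of 2. The fit was first tested on simulated counts.

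Same-numbered libraries of a line deviated together (correlation 0.105 to 0.530, over 0.1 in 15 of 15 pairs), so the numbers were taken to pair the libraries, and a replicate block was an alternative. Other alternatives were RLE factors, library totals, no filter, only the groups compared, leaving out each library, leaving out the 3 libraries low on GC-rich genes, the block with a GC correction (GC content known for 98.9% of genes), DESeq2 1.42.0 and, for Fam210b levels and added after the data were seen, edgeR's fitted spread of genes of like abundance in place of the gene's own. The members and gene lists were chosen with earlier results of these data known. Named genes were the members, Acvr1c, Smad7 and Skil, the 3 neighbours on each side, up to 4 called genes per list by p in control cells, the known partners, and the genes most and least like a member. Gene positions came from GENCODE M21 (GRCm38) and the upstream sequence from RefSeq.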

Additional observations from a re-analysis of the deposited data

How the results depend on the processing

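Under all alternatives the Fam210b increase, by which the gene was picked, kept its direction in every line. Its responses, response differences and levels had 270 alternative values. Of these, 2 moved by more than the spread between replicates, for the sh1/2 response and its difference from control. Another 19 ended the call of a level. The other 249 include values of the response by which the gene was picked and levels that were not called. With the spread of genes of like abundance, added after the data were seen, its levels in ALK7 with activin B (0.17) and DOX alone (0.23) and in sh2 with DOX alone (-0.15) did not pass. Without the 3 libraries low on GC-rich genes (control activin B replicate 2, sh1/2 DOX replicates 1 and 3, taken from an earlier analysis of these data), which leaves sh1/2 DOX with 1 library assumed to vary like the rest, the sh1/2 increase was 3.34 and its difference from control -0.22. In the same fit, level calls of Fam210b against control changed for ALK7 with activin B (0.17). Without the low-count filter, the level calls of sh2 with DOX alone (-0.14) and ALK7 with activin B (0.18) did not pass. Fitted with only the groups compared, sh2 with DOX alone (-0.15) and, with activin B, ALK7 (0.16), ALK7-DN (-0.34) and sh2 (-0.23) did not pass, nor did Fam210a in sh1/2 with activin B (-0.28). Leaving out 1 library at a time gave -0.17 to -0.11 for Fam210b in sh2 with DOX alone and 0.13 to 0.20 in ALK7 with activin B.

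Fam210a values lay near 0 and turned sign in several settings. Leaving out 1 library gave responses of -0.270 to -0.0461 in sh1/2 and -0.0345 to 0.133 in control, response differences of -0.104 to 0.0635 (ALK7), -0.0230 to 0.144 (ALK7-DN) and -0.340 to -0.0998 (sh1/2), levels with activin B of -0.122 to 0.0455 (ALK7), -0.103 to 0.0642 (ALK7-DN), -0.0831 to 0.0841 (sh2) and -0.342 to -0.175 (sh1/2), and levels with DOX alone of -0.0645 to 0.0196 (ALK7) and -0.164 to 0.0601 (sh1/2). Without the 3 libraries its responses were 0.17 (sh2, now past the test with a smaller SE), 0.177 (sh1/2) and -0.0374 (control). The response differences in that fit were 0.0535 (ALK7) and 0.214 (sh1/2). Levels with activin B were 0.0442 (ALK7), 0.0669 (ALK7-DN) and 0.0856 (sh2), and the sh1/2 level with DOX alone was -0.39. These sh1/2 values rest on 1 sh1/2 DOX library. With the replicate block and GC correction the sh1/2 response was 0.0645, the response differences 0.0652 (ALK7) and 0.0446 (sh1/2), the levels with activin B 0.0189 (ALK7), 0.0170 (ALK7-DN) and 0.0123 (sh2), and the sh1/2 level with DOX alone -0.20, past the test; Seh1l and Atad3a in sh1/2 stood at 0.00925 and -0.0976. Seh1l was 0.0587 without the 3 libraries. The replicate block alone changed no call of either member. The cause of these changes was not tested.

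Counts over the 6 mitochondrial lists in ALK7, ALK7-DN, sh2, sh1/2 and control were 22, 9, 14, 38 and 13. They were 38, 15, 27, 69 and 22 with the replicate block and 38, 14, 26, 2 and 8 without the 3 libraries. The share of all genes called also moved with the setting, in ALK7 from 25.3% to 32.1% with the replicate block. Without the 3 libraries the share of the lists called was near that of all genes in ALK7 (30.9% against 31.0%). It was below it in ALK7-DN (11.4% against 20.5%), sh2 (21.1% against 25.9%) and control cells (6.5% against 19.5%). The sh1/2 count in that fit rests on 1 DOX library. Shares of all genes without the filter or with only the groups compared are not given here. A change particular to the lists therefore cannot be read from the counts in those settings. Without the low-count filter the counts were 13 in ALK7, 2 in ALK7-DN, 8 in sh2 and 5 in control. With only the groups compared they were 4 in ALK7-DN, 4 in sh1/2 and 3 in control. DESeq2 and RLE factors kept these counts within 1.5 times. At 632 to 19764 counts per library for Fam210b and 1256 to 2192 for Fam210a, counting error is small for the members, while Alas2 and Pdk4, with 7 and 11 counts in all, could not be tested.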
